A study of Mus musculus with 2 samples.

Results

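Collagens are the trimeric proteins that form most of the extracellular matrix, and the genes described here are those that encode their chains. They were taken as every gene whose symbol is Col, a number, the letter a and a number, in either of the expression tables, which gave 44 of 21722 genes. The table of the normal liver listed 40 of them and that of the fibrotic liver 42, with 38 in both. Col2a1 and Col10a1 were listed for the normal liver only, and Col6a4, Col22a1, Col26a1 and Col28a1 for the fibrotic liver only. By the structure of the assembled protein, 11 were fibrillar, 6 basement membrane, 6 beaded-filament, 9 FACIT (fibril-associated collagens with interrupted triple helices), 3 short-chain network, 2 multiplexin and 4 transmembrane chains, and 3 belonged to none of these types.

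The data were single-cell RNA-sequencing (scRNA-seq) counts of liver non-parenchymal cells (NPCs), the cells left once hepatocytes are spun out of a collagenase-digested liver. There were 2 libraries, each from 1 male C57BL/6 mouse 8 weeks old. The labels give one as the quiescent state, and its mouse is called normal here; per the methods, controls received olive oil. The other mouse had CCl4-mediated liver fibrosis from injections of CCl4, a hepatotoxin activated in hepatocytes, at 15% in olive oil and 0.6 μL/g, 2 times a week for 6 weeks. Mice of the model were killed 48 h after the last injection. With 1 mouse and 1 library per condition there was no replicate, so no difference below was tested. A difference between conditions cannot be told apart from one between these mice or their libraries.

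Fibrillar collagens polymerise into the banded fibrils of scar tissue and of the portal tract. Type IV collagen forms the sheet-like network of basement membranes, type VI forms beaded filaments between cells and fibrils, and FACIT chains decorate fibril surfaces. In the liver, quiescent hepatic stellate cells (HSCs) lie between the sinusoidal endothelium and hepatocytes, portal fibroblasts (PFs) lie in the portal tract, mesothelial cells cover the capsule, and liver sinusoidal endothelial cells (LSECs) line the sinusoids with little organised basement membrane. HSCs and PFs are the best known sources of myofibroblasts, the contractile matrix-producing cells of a fibrotic liver.

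The normal library held 8130 cells with 44062632 unique molecular identifiers (UMIs) and the fibrosis library 6437 cells with 53288463 UMIs. After cells with 10% or more mitochondrial UMIs were left out, 7471 and 6132 cells were kept. The tables shared 15 cell barcodes. Clusters found without the collagen genes were called by their markers. In the normal liver there were 61 HSC-like, 43 PF-like, 44 mesothelial-like and 1710 LSEC-like cells, and in the fibrotic liver 127, 80, 48 and 1312. The HSC-like class was sub-cluster 0 of the normal mesenchymal cells, and sub-clusters 3 and 4 of the fibrotic ones. None of the 25 HSC and myofibroblast markers was at 0 in it, and they summed to 501 UMIs per 10000 in the normal and 327 in the fibrotic liver, against 2.77 and 6.38 in LSEC-like cells. The 16 PF markers summed to 129 and 91.6 UMIs per 10000 in PF-like cells, where 0 and 2 of them were at 0, the 11 mesothelial markers to 226 and 124 in mesothelial-like cells, and the 25 endothelial markers to 329 and 291 in LSEC-like cells. Other mesenchymal cells, 61 normal and 317 fibrotic, led with endothelial, macrophage, plasma-cell or cell-cycle genes or with no marker and are described apart.

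A level is the UMIs of a gene per 10000 UMIs of all cells of a class in a library, with an exact Poisson 95% interval in brackets. A ratio is the fibrosis level over the normal level with an exact conditional 95% interval. These intervals, and those of shares, cover counting error only. UMIs were read from transcript 3′ ends and do not grow with transcript length, so levels of different genes are set side by side without a length correction. In droplet data, free RNA gives UMIs in cells that do not express a gene. Lymphoid cells (B, NK and T cells, 1574 normal and 1329 fibrotic), which are not known as collagen producers, were therefore read as the background, and their level is given where it bears on a value. Fibrotic lymphoid cells included clusters of 248 and 238 cells with median UMIs of 1351.5 and 1494.5 and with Igha and Igkc among their leading genes. Normal lymphoid clusters had medians from 2776.5 to 4126. The part of the low-count clusters in the fibrotic lymphoid level was not tested. All collagen genes together were at 2.39 UMIs per 10000 in normal and 18.1 in fibrotic lymphoid cells.

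Summed collagen was higher in the fibrotic liver in HSC-, PF-, mesothelial- and LSEC-like cells, and in LSEC-like cells by no more UMIs per 10000 than in lymphoid cells. The comparison with lymphoid cells holds for the scaled level only, since lymphoid cells had fewer UMIs per cell than LSEC-like cells. In PF-like cells the summed level was 305 [300–311] UMIs per 10000 in the normal and 659 [654–663] in the fibrotic liver. In HSC-like cells it was 72.4 [69.9–74.9] and 424 [421–428]. In mesothelial-like cells it was 48.5 [46.7–50.4] and 76.6 [74.8–78.5], and in LSEC-like cells 13.4 [13.1–13.6] and 28.3 [28.0–28.6]. Of these classes PF-like cells had the highest level in both libraries. As UMIs per cell, which also carry the larger counts of fibrotic cells, collagen was 51.7 and 516 in HSC-like, 249 and 1088 in PF-like, 61.5 and 140 in mesothelial-like and 7.03 and 25.1 in LSEC-like cells. Median UMIs per cell in these classes were 6386, 7333, 11191.5 and 4940 in the normal and 11330, 14537.5, 16072.5 and 7926.5 in the fibrotic liver. Because LSEC-like cells were so many, they held 25.1% of all collagen UMIs of the normal library, more than the 22.3% of PF-like or the 6.58% of HSC-like cells. In the fibrosis library their share was 8.23%, beside 21.7% in PF-like and 16.3% in HSC-like cells.

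The types made up different shares of the collagen UMIs in each class. Fibrillar chains were 37.8% [36.1–39.5] of those in normal HSC-like cells and 72.3% [72.0–72.6] in fibrotic ones, while FACIT chains were 35.8% [34.2–37.5] and 7.90%. PF-like cells were fibrillar in both livers, at 75% and 80.0%. Mesothelial-like cells had 52.8% and 66.9% fibrillar UMIs, with FACIT chains at 19.1% and 4.54%. LSEC-like cells were of the basement membrane type, with 69.1% [68.2–69.9] and 69.5% [69.0–70.0] of collagen UMIs from type IV chains. Their other main type in the normal liver was the transmembrane one, at 19.1% against 6.80% in the fibrotic liver, where fibrillar chains took 17.2% against 8.21%. In lymphoid cells the fibrillar share was 16% and 45.0%.

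**Figure D1:**
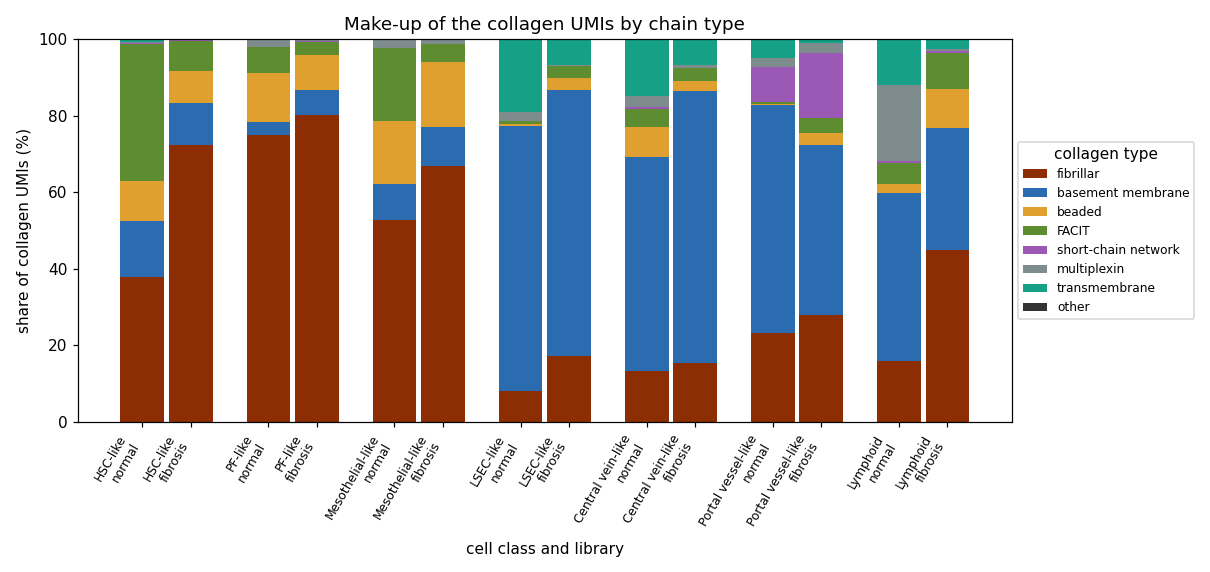
Stacked bars give the share of collagen UMIs (%, vertical axis) from each of 8 collagen types in 7 cell classes, with the normal and the fibrosis library side by side. The fibrillar share of HSC-like cells is 37.8% in the normal and 72.3% in the fibrotic liver, whereas the type IV share of LSEC-like cells is 69.1% and 69.5%.

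A gene was counted in a class when its level averaged at least 0.05 UMIs per 10000 over both libraries, and called when its ratio was at least 2 or at most 0.5. Genes near this minimum enter through the library where they are high, so the counts describe and do not support a direction. In HSC-like cells 22 of the 44 genes were counted, 15 were higher in the fibrotic liver, where 10.3% of all 10900 genes counted were, and 4 were lower, against 11%. The median ratio of the 22 was 4.0, against 1.01 for all genes. In PF-like cells 28 were counted, with 10 higher (14.4% of all genes) and 5 lower (13.5%), and a median of 1.26 against 1.06. In mesothelial-like cells 23 were counted, with 8 higher (15.8%) and 4 lower (10.4%), and a median of 1.47 against 1.09. Collagen genes higher and lower there were 5 and 5 with the lymphoid level subtracted, and 11 and 3 at resolution 1.5. In LSEC-like cells 14 were counted, 10 higher (5.3%) and 1 lower (5.91%), with a median of 6.13 against 1.05. In lymphoid cells, however, 15 were counted, 12 higher (11.4%) and 1 lower (7.44%), with a median of 16 against 1.13. Counting each gene as UMIs per cell instead multiplies every ratio of a class, for all genes alike. The factor is 1.70 in HSC-like, 2.03 in PF-like, 1.44 in mesothelial-like and 1.69 in LSEC-like cells.

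**Figure D2:**
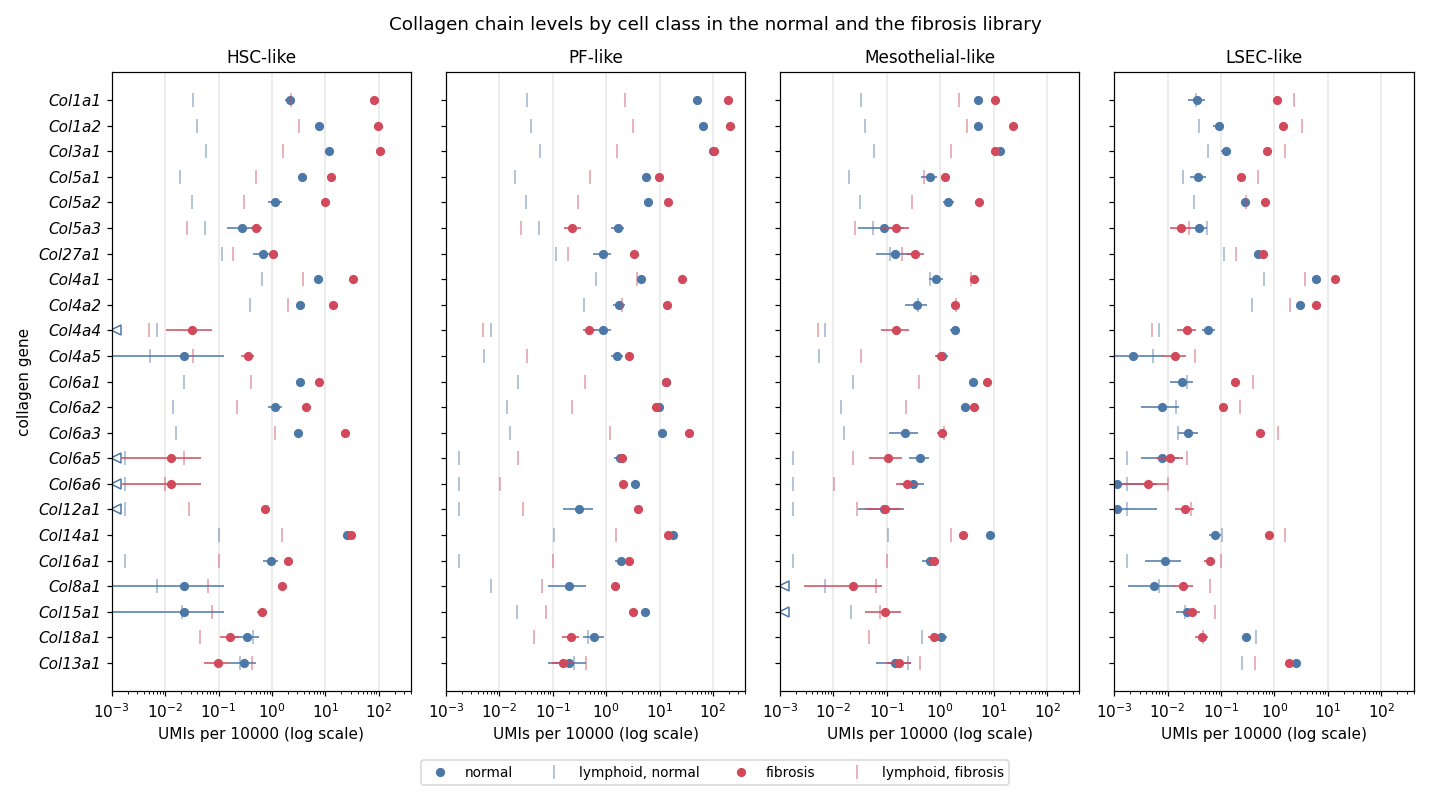
Levels of 23 collagen genes (UMIs per 10000, log axis) in HSC-, PF-, mesothelial- and LSEC-like cells, with normal points in blue, fibrosis points in red, 95% counting intervals as bars, lymphoid levels as vertical ticks and open triangles for 0 UMIs. Col1a1 lies at 2.13 and 80.5 in HSC-like and at 49.9 and 187 in PF-like cells, and in fibrotic LSEC-like cells, at 1.12, lies left of its lymphoid tick at 2.28.

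Col1a1 and Col1a2 encode the chains of type I collagen, the main fibril of scar tissue. In HSC-like cells Col1a1 was at 2.13 [1.72–2.61] UMIs per 10000 in the normal and 80.5 [79.1–82.0] in the fibrotic liver, a ratio of 37.7 [30.8–46.8]. Col1a2 was at 7.66 [6.86–8.53] and 94.8 [93.3–96.3], a ratio of 12.4 [11.1–13.8]. The Col1a1 ratio was 68.2 when the 5% of cells scored most doublet-like were dropped. In single HSC-like cells Col1a1 ran from 0 through a median of 0 to 25.5 UMIs per 10000 in the normal liver, where 47.5% of cells had a UMI. In the fibrotic liver it ran from 0 through 31.8 to 321, with a UMI in 93.7% of cells. The cells overlapped at the low end, and the 1 cell with the most Col1a1 held 9.78% of the class's Col1a1 UMIs in the fibrotic liver.

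PF-like cells had abundant type I transcripts in the normal liver already. Col1a1 was at 49.9 [47.6–52.3] and 187 [185–189] UMIs per 10000, a ratio of 3.75 [3.57–3.94], and Col1a2 at 64.0 [61.3–66.7] and 206 [203–208], a ratio of 3.22 [3.08–3.36]. Every PF-like cell of both libraries had a Col1a1 UMI, with a median of 37.3 UMIs per 10000 (range 3.95 to 304) in the normal and 171 (27.0 to 298) in the fibrotic liver. The normal PF-like level was above the normal HSC-like level by more than the fibrosis-to-normal ratio of PF-like cells themselves. With whole-library clusters in place of sub-clusters the PF-like ratios were larger, for example 8.24 for Col1a1, 7.39 for Col1a2, 3.83 for Col5a1, 4.44 for Col5a2, 14.8 for Col4a2 and 7.34 for Col6a3. These compare unlike cells, since the normal PF-like cluster then (88 cells) also had 3 mesothelial markers among its leading 10 genes and the fibrotic one (72 cells) had none. The main PF-like sub-clusters shared only Mfap4 and Dpep1 among their leading 10 genes. Whether they hold like cells was not tested. In mesothelial-like cells Col1a1 was at 5.09 and 10.4, a ratio of 2.04 [1.79–2.34], and Col1a2 at 5.01 and 23.1, a ratio of 4.62 [4.07–5.25]. Without the most doublet-like cells these ratios were 3.46 and 8.64, and at a clustering resolution of 1.5 they were 4.40 and 9.33. None of these ratios subtracts the lymphoid levels of Col1a1 and Col1a2, which were higher in the fibrotic liver too.

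Col3a1 encodes the single chain of type III collagen, the thin fibril that copolymerises with type I. In HSC-like cells it was the most abundant fibrillar chain in both libraries, at 11.6 [10.6–12.7] and 107 [106–109] UMIs per 10000, a ratio of 9.24 [8.46–10.1]. In PF-like cells it was at 101 [97.4–104] and 107 [105–108], a ratio of 1.06 [1.02–1.10]. Type III therefore stood far apart from type I in PF-like cells, where single-cell medians of Col3a1 were 79.1 and 97.9 UMIs per 10000. That ratio was 2.26 with whole-library clusters, where the normal PF-like cluster also held mesothelial markers. In mesothelial-like cells Col3a1 was at 13.2 and 10.7, a ratio of 0.809 [0.734–0.892], which was 1.38 at a mitochondrial limit of 5%.

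The promoter windows of Col1a2 and Col3a1 are shown as those of fibril genes with different ratios in PF-like cells (3.22 and 1.06). They share none of the motifs searched, and a link of motifs to ratios was not tested. The windows hold 250 bases before and 50 after the RefSeq start in GRCm38.p6, the build family of the tables. Col1a2 lies at chr6:4505368-4505667 and Col3a1 at chr1:45311288-45311587, both on the plus strand. Capitals mark CCAAT, read as ATTGG on the other strand, in Col1a2, and TATAAA in Col3a1. Col1a2 also holds GGGCGG, which is not marked.
Col1a2: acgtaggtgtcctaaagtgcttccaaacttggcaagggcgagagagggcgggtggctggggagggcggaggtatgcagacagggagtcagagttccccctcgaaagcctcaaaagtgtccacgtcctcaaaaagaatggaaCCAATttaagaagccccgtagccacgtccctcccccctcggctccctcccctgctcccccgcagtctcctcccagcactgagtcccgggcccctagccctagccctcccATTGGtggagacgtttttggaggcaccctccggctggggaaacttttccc
Col3a1: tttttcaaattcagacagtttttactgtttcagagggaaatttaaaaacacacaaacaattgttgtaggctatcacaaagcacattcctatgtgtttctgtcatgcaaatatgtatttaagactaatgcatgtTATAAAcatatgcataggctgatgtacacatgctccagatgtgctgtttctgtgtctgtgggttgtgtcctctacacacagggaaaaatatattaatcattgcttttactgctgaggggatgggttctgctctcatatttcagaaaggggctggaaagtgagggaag
RefSeq gave such windows for 35 of the 44 genes, 38 windows in all; none was at hand for Col1a1, Col2a1, Col4a3, Col5a2, Col9a3, Col12a1, Col14a1, Col22a1 and Col26a1. On either strand CCAAT stood in 13 of the 38 windows (34.2%) and in 37.4% of all 32851 promoter windows. TATAAA stood in 5 (13.2%), those of Col3a1, Col10a1, Col11a2, Col13a1 and Col17a1, against 13.6%. The letters GGGCGG stood in 23 (60.5%), against 35.7%. These matches describe the letters only.

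The type V chains, minor fibrillar chains that join type I in mixed fibrils, differed from one another. In HSC-like cells Col5a1 was at 3.67 and 12.8 UMIs per 10000, a ratio of 3.48 [2.96–4.12], and Col5a2 at 1.15 and 9.90, a ratio of 8.63 [6.51–11.7]. In PF-like cells Col5a1 was at 5.69 and 9.73 (ratio 1.71) and Col5a2 at 6.20 and 14.3 (2.31). Col5a3, the least abundant of them, went the other way in PF-like cells, from 1.66 in the normal to 0.235 in the fibrotic liver, a ratio of 0.142 [0.0885–0.223], with a UMI in 46.5% and 25% of cells. At a mitochondrial limit of 5% that ratio was 0.230. Fibrotic mesenchymal sub-cluster 9, led by Cxcl5 and Fndc1 and outside the PF-like class, had Col5a3 above the normal PF-like level, as given below. In HSC-like cells Col5a3 was at 0.275 and 0.512. In mesothelial-like cells Col5a2 was at 1.42 and 5.21, a ratio of 3.68 [2.89–4.73], and Col5a1 at 0.628 and 1.25. Col27a1, a fibrillar chain best known from cartilage, was at 0.857 and 3.32 in PF-like cells, a ratio of 3.87 [2.67–5.80] that was 5.89 without the most doublet-like cells and 7.81 at resolution 1.5. In all, 5 of the 8 fibrillar genes counted in HSC-like cells and 4 of the 7 in each of the PF- and mesothelial-like classes were called higher, against 10.3%, 14.4% and 15.8% of all genes, and 1, 1 and 0 were called lower. In lymphoid cells 5 of 6 fibrillar genes were called higher, against 11.4%.

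Among basement membrane chains, Col4a1 and Col4a2, which form the common type IV trimer, were called higher in HSC-, PF- and mesothelial-like cells. In HSC-like cells Col4a1 was at 7.25 [6.47–8.09] UMIs per 10000 in the normal and 32.2 [31.3–33.1] in the fibrotic liver, a ratio of 4.45 [3.97–5.0]. Col4a2 was at 3.35 and 13.8, a ratio of 4.13 [3.49–4.92]. In single HSC-like cells Col4a1 had a median of 6.19 UMIs per 10000 (range 0 to 20.7) in the normal and 27.9 (0 to 68.6) in the fibrotic liver. In PF-like cells Col4a1 was at 4.57 and 25.9, a ratio of 5.66 [4.83–6.68], and Col4a2 at 1.77 and 13.9, a ratio of 7.84 [6.08–10.3]. Type IV ratios in PF-like cells were thus above the type I ratios of the same cells. In mesothelial-like cells Col4a1 was at 0.825 and 4.22, but in lymphoid cells of the same libraries it was at 0.643 and 3.74, so those levels were little above the background. With the lymphoid level subtracted the ratio there, 5.11 otherwise, was 2.65. Mesothelial-like Col4a2, at 0.359 and 1.90, lay below the lymphoid levels of 0.387 and 1.98.

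LSEC-like cells had Col4a1 at 6.11 [5.95–6.28] and 13.7 [13.5–14.0] UMIs per 10000, a ratio of 2.25 [2.18–2.32]. Lymphoid cells were at 0.643 and 3.74 on the same scale, and with their level subtracted the LSEC-like ratio was 1.83. Col4a2 was at 3.03 and 5.90, a ratio of 1.94 [1.86–2.03]. Col4a1 was detected in most LSEC-like cells, 82.9% in the normal and 98.8% in the fibrotic liver, and with every cell thinned to 1000 UMIs in 40.9% and 71.2%, against 4.20% and 25.2% of lymphoid cells. LSEC-like cells held 47.9% of all Col4a1 UMIs of the normal and 30.4% of the fibrosis library. By sinusoidal position, Col4a1 was at 5.18 and 13.7 in the sub-clusters with zone 1 (periportal) markers, and at 7.30 and 13.9 in those with zone 2 and 3 markers.

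Col4a1 was the more abundant of the pair in every class shown. Per Col4a2 UMI there were 2.16 and 2.33 Col4a1 UMIs in HSC-like, 2.58 and 1.87 in PF-like, 2.30 and 2.22 in mesothelial-like and 2.01 and 2.33 in LSEC-like cells, and 1.66 and 1.89 in lymphoid cells. The intervals of LSEC-like cells, 1.92 to 2.11 and 2.26 to 2.40, did not overlap. The pair lies head to head on chromosome 8, and RefSeq places the starts 21 bases apart in GRCm38.p6. Their windows are shown because they overlap, read from opposite strands. The window of Col4a1 is chr8:11312777-11313076 on the minus strand and that of Col4a2 is chr8:11312555-11312854 on the plus strand. Capitals mark the 78 bases found in both.
Col4a1: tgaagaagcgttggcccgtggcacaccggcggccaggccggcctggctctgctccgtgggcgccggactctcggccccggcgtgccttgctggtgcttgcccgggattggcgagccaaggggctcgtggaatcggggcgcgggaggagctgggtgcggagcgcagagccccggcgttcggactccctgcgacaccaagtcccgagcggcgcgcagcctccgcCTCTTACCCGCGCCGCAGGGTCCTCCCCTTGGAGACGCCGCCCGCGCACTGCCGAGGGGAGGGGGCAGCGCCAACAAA
Col4a2: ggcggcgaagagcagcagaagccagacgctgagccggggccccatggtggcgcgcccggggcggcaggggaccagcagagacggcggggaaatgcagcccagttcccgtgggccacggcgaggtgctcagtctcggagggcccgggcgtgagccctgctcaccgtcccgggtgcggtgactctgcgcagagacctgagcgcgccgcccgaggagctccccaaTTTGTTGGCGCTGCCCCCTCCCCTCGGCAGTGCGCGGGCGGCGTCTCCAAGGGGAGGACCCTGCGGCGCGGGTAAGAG
The other type IV genes are paired likewise, Col4a3 with Col4a4 on chromosome 1, with 72 bases between starts, and Col4a5 with Col4a6 on chromosome X, with 1309 bases between starts.

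These other type IV chains, known from specialised basement membranes, were rare and behaved unlike the common pair. Col4a4 was at 1.87 [1.52–2.26] UMIs per 10000 in normal mesothelial-like cells, above Col4a1 there, and at 0.149 in fibrotic ones, a ratio of 0.0797 [0.0410–0.142] that was 0.0429 at a mitochondrial limit of 5%. It was detected in 72.7% and 16.7% of these cells. In PF-like cells Col4a4 was at 0.886 and 0.477. Col4a5 was at 1.60 and 2.69 in PF-like and at 1.06 and 1.02 in mesothelial-like cells, and in HSC-like cells at 1 UMI in the normal and 0.350 per 10000 in the fibrotic liver, a ratio of 15.3 with an interval of 2.62 to 613. Col4a6 was at 0.714 and 0.341 in PF-like cells, a ratio of 0.477 [0.286–0.812], and at 0.197 and 0.4 in mesothelial-like cells, a ratio of 2.03 [1.01–4.43]. Col4a3 never exceeded 0.171, its level in normal PF-like cells.

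**Figure D3:**
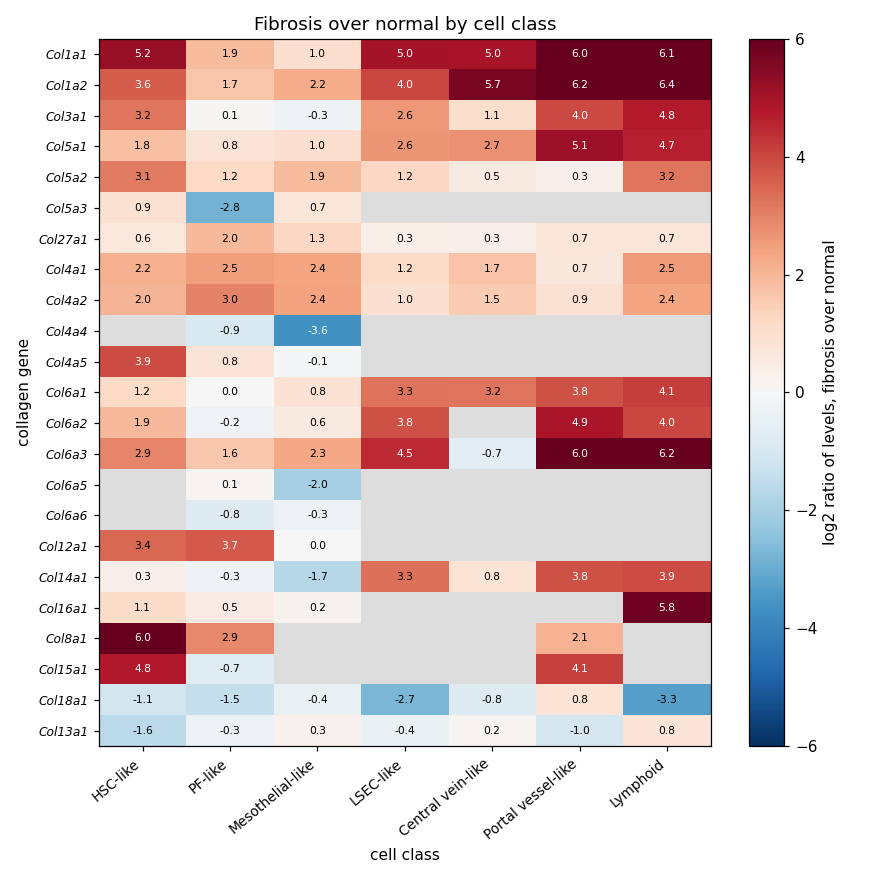
Heat map of the log2 ratio of fibrosis over normal levels for 23 collagen genes (vertical) in 7 cell classes (horizontal), with grey for genes under the level minimum and a bound where the normal library had 0 UMIs. In HSC-like cells Col1a1 has a ratio of 37.7 and Col13a1 one of 0.326, and the lymphoid column reaches 83.0 for Col1a2.

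Type VI collagen is a trimer whose common form joins the products of Col6a1, Col6a2 and Col6a3. In HSC-like cells Col6a1 was at 3.33 and 7.68 UMIs per 10000 (ratio 2.31 [1.94–2.76]) and Col6a2 at 1.15 and 4.43 (3.86). Col6a3 was at 3.05 and 22.9, a ratio of 7.50 [6.31–8.98]. In PF-like cells Col6a3 alone of these was called, at 11.3 and 35.0, a ratio of 3.11 [2.81–3.46]. Col6a1 there was at 13.1 in both libraries, a ratio of 1.0 [0.904–1.11], and Col6a2 at 9.86 and 8.58. Per Col6a1 UMI, Col6a3 thus went from 0.917 to 2.98 in HSC-like and from 0.862 to 2.68 in PF-like cells, whereas in mesothelial-like cells it was 0.0515 and 0.143. Mesothelial-like cells had Col6a1 at 4.18 and 7.51 and Col6a2 at 2.85 and 4.18, with little Col6a3: at 0.215 and 1.07 it lay below the lymphoid level of 1.16 in the fibrotic liver. The chains Col6a5 and Col6a6, related to Col6a3, had their highest class levels in PF-like cells, Col6a5 at 1.80 and 1.96 and Col6a6 at 3.51 and 2.07. PF-like cells held 63.0% and 43.8% of all Col6a5 UMIs of the libraries, and other mesenchymal cells 47.5% in the fibrotic liver. In mesothelial-like cells Col6a5 was at 0.413 and 0.103, a ratio of 0.249.

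Among FACIT genes, Col14a1, whose product coats type I fibrils, was the most abundant collagen of normal HSC-like cells. It was at 25 [23.5–26.5] UMIs per 10000 there and at 30.8 [29.9–31.7] in fibrotic ones, a ratio of 1.23 [1.15–1.32]. Single HSC-like cells had a median of 23.6 (range 0 to 56.8) in the normal and 30.2 (0 to 74.8) in the fibrotic liver, with a UMI in 91.8% and 98.4%. The cells of both livers overlapped over most of their range, and the smaller FACIT share in fibrotic HSC-like cells came with higher fibrillar levels and not with less Col14a1. Per Col1a1 UMI there were 11.7 [9.47–14.6] Col14a1 UMIs in normal and 0.382 in fibrotic HSC-like cells. In PF-like cells Col14a1 was at 18.1 and 14.6, a ratio of 0.807 [0.738–0.885] that was 1.49 at a mitochondrial limit of 5%. In mesothelial-like cells it was at 8.49 [7.74–9.29] and 2.61, a ratio of 0.307 [0.261–0.361] that was 0.125 with the lymphoid level subtracted, and with a single-cell median of 8.59 in the normal and 1.75 in the fibrotic liver.

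Col12a1, a FACIT gene related to Col14a1, was far less abundant. It had no UMI in normal HSC-like cells and 0.752 per 10000 in fibrotic ones, at least 10.9-fold higher when 0 is taken at 3 counts over the class. In PF-like cells it was at 0.314 and 4.0, a ratio of 12.7 [7.06–25.7], and was detected in 16.3% and 88.8% of cells. That ratio was between 20.7 and 24.1 at resolution 1.5, with whole-library clusters (the normal one with mesothelial markers) and without the most doublet-like cells. In mesothelial-like cells Col12a1 was at 0.0897 and 0.0915. Col16a1, another FACIT gene, was at 0.941 and 2.0 in HSC-like cells (ratio 2.13), at 1.89 and 2.69 in PF-like and at 0.646 and 0.755 in mesothelial-like cells.

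Col8a1, a short-chain network gene known from vessel walls, had 1 UMI in normal HSC-like cells and 234 in fibrotic ones, or 1.52 per 10000, a ratio of 66.1 with an interval of 11.7 to 2622. It was found in 43.3% of fibrotic HSC-like cells and in 1.64% of normal ones. That ratio was 40.3 without the most doublet-like cells and 6.66 with whole-library clusters. In PF-like cells Col8a1 was at 0.2 and 1.46, a ratio of 7.30 [3.48–18.4]. The highest levels were in endothelial cells with markers of portal vessels, 1.16 [1.03–1.31] in 362 normal and 4.96 [4.44–5.53] in 110 fibrotic cells, a ratio of 4.26 [3.63–5.01] that was 2.25 at a mitochondrial limit of 5%. The portal vessel-like cells held 76.9% of all Col8a1 UMIs of the normal library and 21.0% of the fibrosis library.

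The multiplexins Col15a1 and Col18a1, basement membrane zone collagens that carry endostatin-like ends, were called in different directions. In HSC-like cells Col15a1 had 1 UMI in the normal liver and 0.641 per 10000 in the fibrotic liver, a ratio of 28.0 with an interval of 4.90 to 1115, while Col18a1 was at 0.344 and 0.162 (ratio 0.471). In PF-like cells Col15a1 was at 5.26 and 3.22, a ratio of 0.612 [0.514–0.732] that was 1.75 with whole-library clusters, the normal one of which held mesothelial markers, and Col18a1 at 0.6 and 0.220. Col18a1 was highest in normal hepatocyte-like cells, at 3.53 against 1.10 in fibrotic ones. Its lymphoid level was 0.449 and 0.0455, and the hepatocyte markers summed to 279 and 25.2 UMIs per 10000 in the same lymphoid cells. The part of free hepatocyte RNA in the lower Col18a1 of other classes was not tested.

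Col13a1, a transmembrane collagen of cell adhesion sites, was mainly endothelial. In LSEC-like cells it was at 2.51 [2.41–2.61] UMIs per 10000 in the normal and 1.90 in the fibrotic liver, a ratio of 0.759 [0.715–0.805]. It was detected in 62.5% and 69.2% of these cells, with single-cell medians of 1.89 and 1.45 UMIs per 10000. LSEC-like cells held 61.2% and 53.2% of all Col13a1 UMIs of the libraries. Its level was higher in cells with zone 2 and 3 markers (3.07 and 2.53) than in those with zone 1 markers (2.29 and 1.72) in both livers. Portal vessel-like cells had 0.517 and 0.258.

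Fibrillar UMIs in LSEC-like cells were set beside the background. Col1a1 was at 0.0356 UMIs per 10000 in the normal and 1.12 in the fibrotic liver, a ratio of 31.5 [22.2–46.2], but lymphoid cells were at 0.0335 and 2.28, a ratio of 68.2 [43.4–114]. Of the few Col1a1 UMIs in normal LSEC-like cells 43.8% were in 1 cell, and the ratio was 55.1 without the 1% of cells with the most collagen and 115 at a mitochondrial limit of 5%. With every cell thinned to 1000 UMIs, 0.409% of normal and 10.5% [8.85–12.2] of fibrotic LSEC-like cells had a Col1a1 UMI, against 0.382% and 25.4% [23.1–27.9] of lymphoid cells. Unthinned shares were 0.936% and 61.2% in LSEC-like cells, of median depth 4940 and 7926.5 UMIs, and 1.14% and 47.8% in lymphoid cells, of 3139 and 2226. As UMIs per cell, Col1a1 was 0.0187 and 0.994 in LSEC-like and 0.0121 and 0.679 in lymphoid cells. Fibrotic LSEC-like cells therefore lay below lymphoid cells on the scaled measures and above them per cell, and no level of Col1a1 above background was detectable at this depth on the scaled measures.

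Col1a2, Col3a1 and Col14a1 were likewise below the lymphoid level per 10000 UMIs and above it per cell. In fibrotic LSEC-like cells Col1a2 was at 1.47 UMIs per 10000, Col3a1 at 0.735 and Col14a1 at 0.778, against 3.22, 1.58 and 1.56 in lymphoid cells. From slightly fewer cells, LSEC-like cells held 1706, 856 and 906 UMIs of these genes, against 1272, 625 and 616 in lymphoid cells. Per Col1a1 UMI, fibrotic LSEC-like cells had 0.656 [0.602–0.716] Col3a1 UMIs and 0.695 Col14a1 UMIs, and fibrotic lymphoid cells 0.693 [0.625–0.768] and 0.683. The corresponding numbers were 1.33 and 0.382 in fibrotic HSC-like and 0.570 [0.558–0.582] and 0.0780 in fibrotic PF-like cells. The part of free RNA in the UMIs of LSEC-like cells was not tested. Of the 15 collagen genes with enough UMIs in the fibrotic liver, 5 were at least 2 times the lymphoid level in LSEC-like cells, where 12.4% of all genes were: Col4a1, Col4a2, Col5a2, Col13a1 and Col27a1. These same 5 were among the 7 of 9 in the normal liver (17.1% of all genes), the other members being Col1a2 and Col3a1, of whose normal UMIs 63.0% and 64.5% were in 1 cell. By contrast, 19 of 20 genes in fibrotic HSC-like cells (14.9%), 25 of 26 in PF-like cells (17.6%) and 16 of 23 in mesothelial-like cells (16.4%) were at least 2 times the lymphoid level, and in the normal liver 16 of 18 (19.5%), 25 of 27 (24.4%) and 17 of 22 (21.7%).

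In endothelial classes Col5a2 was highest in portal vessel-like cells, where Col5a1 was nearly missing in the normal liver. It was there at 2.41 [2.22–2.61] and 3.00 UMIs per 10000, with 36.5% of all Col5a2 UMIs of the normal library, and per Col5a2 UMI there were 0.00338 and 0.0960 Col5a1 UMIs. In normal HSC-like cells that number was 3.20. Central vein-like cells had Col5a2 at 0.826 and 1.20, LSEC-like cells with zone 1 markers at 0.821 and 1.06 and those with zone 2 and 3 markers at 0.231 and 0.579. The fibrotic zone 1 cells included endothelial sub-cluster 1 (242 cells), with 1 zone 1 and 1 portal vessel marker among its leading genes. In central vein-like cells, 311 normal and 100 fibrotic, Col4a1 was at 4.76 and 15.6, a ratio of 3.28 [3.02–3.55], and in portal vessel-like cells at 5.16 and 8.36, a ratio of 1.62 that was 1.02 with the lymphoid level subtracted. Col6a3 was at 0.926 [0.797–1.07] in normal central vein-like cells, where the lymphoid level was 0.0159, and at 0.587 in fibrotic ones, below the lymphoid level of 1.16. The normal class joined endothelial sub-clusters 6 and 8, and Col6a3 was at 1.56 in sub-cluster 6 (162 cells) and had 2 UMIs in sub-cluster 8 (149 cells), while the fibrotic class was 1 sub-cluster. Of the 13 collagen genes counted in central vein-like cells 7 were higher (6.18% of all genes) and 0 lower (10.1%). In portal vessel-like cells 10 of 17 were higher (8.24%) and 2 lower (8.19%), beside the 12 of 15 called higher in lymphoid cells. In the fibrotic liver 6 of 15 genes in central vein-like and 7 of 16 in portal vessel-like cells were at least 2 times the lymphoid level, against 14.0% of all genes in each class. In both classes Col1a1, Col1a2, Col3a1, Col6a1, Col6a2, Col6a3 and Col14a1 were not. Col15a1 had no UMI in normal portal vessel-like cells and was at 0.212 in fibrotic ones, at least 17.4-fold higher.

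Hepatocyte-like cells, 983 normal and 147 fibrotic, held 3.99% and 0.231% of the collagen UMIs of their libraries, and cholangiocyte-like cells 3.73% and 0.959%. Cholangiocyte-like cells, 235 normal and 90 fibrotic, had Col27a1 at 1.49 and 1.32, Col18a1 at 0.967 and 1.10 and Col4a5 at 0.589 and 0.805 UMIs per 10000. Their Col1a1 was at 0.0064 and 3.10, but 81.0% of the fibrotic UMIs were in 1 cell. Of 21 collagen genes counted there 13 were higher (5.55% of all genes) and 1 lower (4.84%). In the fibrotic liver 8 of 20 were at least 2 times the lymphoid level (20.4%), and Col1a1, Col1a2, Col3a1, Col4a1, Col4a2 and Col14a1 were among the 12 that were not. In fibrotic Kupffer-like, monocyte- or macrophage-like and dendritic-like cells 0 of 16 collagen genes reached 2 times the lymphoid level, where 9.39%, 8.76% and 7.49% of all genes did. In plasmacytoid dendritic-like cells 1 of 17 did, Col8a1 (6.97% of all genes).

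The fibrotic mesenchymal cells fell into 10 sub-clusters, and collagen levels differed widely between them. The fibrotic HSC-like class joined sub-cluster 3 (65 cells, led by Ogn, Vegfd and Spon2) and sub-cluster 4 (62 cells, led by AY036118, Tmem56 and Angptl6). Col1a1 was at 106 UMIs per 10000 in sub-cluster 3 and 13.1 in sub-cluster 4, and Col3a1 at 134 and 36.3, while Col4a1 was at 32.5 and 31.5 and Col14a1 at 28.9 and 35.7. The HSC-like sub-clusters thus differed in fibrillar chains and far less in Col4a1 or Col14a1, and in both Col1a1 exceeded the 2.13 of the normal class. Median UMIs per cell were 16992 and 5803.

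Of the other fibrotic sub-clusters, 1 and 2 led with endothelial genes such as Sox18 or Gpr182, Kdr and Lyve1. Their Col1a1 was at 25.1 and 5.12, their Col3a1 at 40 and 10.8 and their Col14a1 at 20.3 and 11.2 UMIs per 10000, all between the levels of fibrotic HSC-like and LSEC-like cells. Median UMIs were 22841.5 and 23549 per cell, against 16992 and 5803 in the HSC-like sub-clusters 3 and 4. Sub-cluster 5, led by macrophage and immunoglobulin genes, had Col1a1 at 26.9 at a median of 28662.5 UMIs. The doublet caller marked 1 cell in each library. The methods name a doublet exclusion with the same tool, and whether it came before deposit is not stated. The part of doublets in these sub-clusters was not tested. Sub-clusters 6 and 8 led with cell-cycle genes, with Col1a1 at 81.8 and 20.3. Sub-cluster 9 (30 cells, led by Cxcl5 and Fndc1) stood apart by collagen profile, with Col1a1 at 49.6 and Col3a1 at 57.3 but Col14a1 at 2.19, Col4a1 at 6.10 and no Col8a1, and with Col6a5 at 3.07, Col5a3 at 1.76 and Col24a1 at 1.04. In the normal liver, the sub-cluster led by Ccl2 and Jchain (36 cells) and the one led by cell-cycle genes (25 cells) had Col14a1 at 17.5 and 11.3 and Col1a1 at 0.806 and 0.435.

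**Figure D4:**
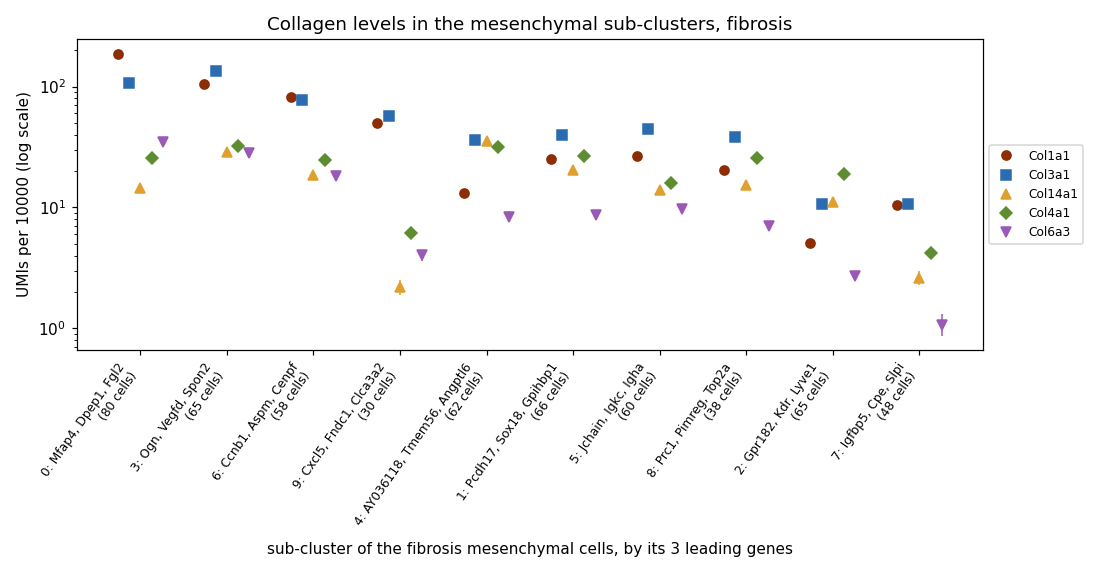
Levels of Col1a1, Col3a1, Col14a1, Col4a1 and Col6a3 (UMIs per 10000, log axis) in the 10 mesenchymal sub-clusters of the fibrotic liver, each named by leading genes and number of cells. Col1a1 spans 187 in the PF-like sub-cluster to 5.12 in the one led by Gpr182, Kdr and Lyve1.

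The proportions of chains that share a trimer also differed between classes. Col1a2 per Col1a1 was 3.59 [2.85–4.57] and 1.18 in HSC-like, 1.28 and 1.10 in PF-like and 0.982 and 2.22 in mesothelial-like cells. The common type I trimer holds more α1 than α2 chains. Col1a1 per Col4a1 was 0.294 and 2.50 in HSC-like and 10.9 and 7.23 in PF-like cells, so the balance of fibrillar to basement membrane chains moved in opposite directions in these classes.

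Genes for folding, crosslinking and trimming of collagen were read from a list of 34, of which 33 were in a table. In HSC-like cells 20 of 29 counted were higher and 1 lower, against 10.3% and 11% of all genes, with a median ratio of 2.68. Serpinh1, the collagen chaperone HSP47, was at 5.92 and 28.3 UMIs per 10000, a ratio of 4.78 [4.21–5.44]. The crosslinking enzymes Lox and Loxl2 had ratios of 46.9 [12.9–389] and 6.52, and Adamts2, a procollagen N-proteinase, was at 1.51 and 7.06. In PF-like cells 8 of 29 were higher and 3 lower (14.4% and 13.5% of all genes), with a median of 1.46. There Serpinh1 was at 13.3 and 24.7, and the enhancers of C-propeptide removal were lower, Pcolce at 7.69 and 3.27 and Pcolce2 at 2.69 and 0.0908. In mesothelial-like cells 4 of 25 were higher and 2 lower (15.8% and 10.4%). In LSEC-like cells 4 of 21 were higher and 0 lower (5.3% and 5.91%), with Serpinh1 at 1.41 and 4.33, Loxl2 at 0.640 and 1.78 and P4ha1, a prolyl hydroxylase subunit, at 0.693 and 1.75. In lymphoid cells 16 of 23 were higher and 1 lower (11.4% and 7.44%), with Serpinh1 at 0.227 and 2.03, Loxl2 at 0.0969 and 0.779 and P4ha1 at 0.349 and 0.840.

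Of 12 collagen receptor genes, 9 were counted in HSC-like cells, of which 4 were higher and 0 lower (10.3% and 11% of all genes), with a median ratio of 1.52. Itga1, the α1 integrin chain, was at 11.6 and 17.4 UMIs per 10000 in HSC-like and at 0.771 and 7.34 in PF-like cells, a ratio of 9.52 [6.50–14.5] in the latter. Ddr2, the kinase receptor for fibrillar collagen, was at 1.97 and 2.99 in HSC-like and at 3.26 and 1.64 in PF-like cells. Mrc2, an endocytic collagen receptor, was at 0.619 and 2.37 and at 1.71 and 4.87. In PF-like cells 6 of 10 receptors were higher and 0 lower (14.4% and 13.5%), with a median of 2.41. In lymphoid cells 6 of 9 were higher and 0 lower (11.4% and 7.44%), with a median of 2.88.

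The other 21 collagen genes stayed under 1 UMI per 10000 in every named mesenchymal and endothelial class, though Col24a1 reached 1.04 in the fibrotic sub-cluster led by Cxcl5 and Fndc1. Col7a1, the anchoring fibril gene, was at 0.0857 and 0.462 in PF-like cells, a ratio of 5.39 [1.76–26.8]. Col8a2 was at 0.229 and 0.356 in PF-like cells, and Col9a3 at 0.144 and 0.222 in cholangiocyte-like cells. Col24a1 and Col25a1, at 0.206 and 0.115 in normal HSC-like cells, were at 0.0778 and 0.0324 in fibrotic ones. Col4a3, Col4a6, Col11a2, Col17a1, Col20a1 and Col23a1 had between 80 and 249 UMIs in both libraries together. The 10 remaining genes, Col2a1, Col6a4, Col9a1, Col9a2, Col10a1, Col11a1, Col19a1, Col22a1, Col26a1 and Col28a1, had at most 17 UMIs each, and no difference in them was detectable at this depth.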

How the data were processed

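Cells of 1 normal and 1 CCl4-treated mouse were profiled with the 10x 3′ v3 kit. The authors deposited raw UMI counts per gene and cell, made with Cell Ranger 3.0.1 per the submitters' processing notes, on mouse mm10; the annotation release is not given in the sources used here. Reads had to be unique and at least partly exonic. Strand use is not stated for these counts, so reads where genes overlap may be shared. Col4a1 and Col4a2 overlap only at their starts, away from the 3′ ends that were read. Whether the authors' filters were applied before deposit is not stated, but cells over the mitochondrial limit were present and were removed here.

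Cells with under 10% mitochondrial UMIs and more than 200 genes were kept, scaled to 10000 UMIs and log-transformed in scanpy 1.11.5 (under Python 3.11.15, with scikit-learn 1.9.0, pandas 2.3.3, anndata 0.12.19, scipy 1.17.1 and numpy 2.4.6). Each library was clustered on 2000 variable genes without collagen genes, with 10 principal components, 20 neighbours and Leiden resolution 0.8 (leidenalg 0.10.2, igraph 0.11.9), and mesenchymal and endothelial clusters were sub-clustered. A cluster took the name with most markers among its top 10 genes by fold, with at least 3 markers raised (0.5 UMIs per 10000, detected in 25% of cells); this rule was adjusted after clusters, but not collagen values, were seen. LSEC-like cells are endothelial sub-clusters with zone markers or with no other name. Figures were drawn with matplotlib 3.10.9.

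UMIs were summed per class, with exact Poisson intervals for levels, exact conditional intervals for ratios and exact binomial (Clopper-Pearson) intervals for shares, all at 95%. There was no test, since each condition had 1 library. Genes named with values are the 23 at 1 UMI per 10000 or more in a mesenchymal or endothelial class, with others named to account for every member. Pathway genes named are those at 0.5 or more with the furthest ratios or of well known function, the latter chosen after their values were seen. The collagen genes, marker lists and pathway lists were chosen with earlier results of these data known. Scrublet, at an expected rate of 0.06, called 1 cell in each library, under the share at which its calls can be relied on unless doublets had been removed before deposit, which is not stated; doublets were not removed, and an alternative left out the 5% of cells with the highest scores. Other alternatives were the mitochondrial limit, the resolution, the scaling, the low-level filter, whole-library clusters, collagen genes kept among variable genes, subtraction of the lymphoid level, and removal of the 1% of cells with most collagen UMIs; removal of the shared barcodes was added after seeing the data. On simulated counts for HSC-, PF-, mesothelial- and LSEC-like classes (7209, 6984, 6963 and 7203 genes, 200 changed 4-fold in each), 200, 198, 197 and 200 changed genes were recovered, and 152, 179, 120 and 0 unchanged genes were called.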

Additional observations from a re-analysis of the deposited data

Results flagged for a closer look

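Col4a6 pointed in opposite directions in neighbouring mesenchymal classes. Its ratio of fibrosis over normal levels was 2.03 in mesothelial-like cells and 0.477 in PF-like cells, and the difference between these classes was not tested, since each condition had 1 library.

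Fibrillar collagen also appeared in cells outside every comparison. Among the 305 cells of the fibrosis library left out for a high mitochondrial share, Col1a1 was at 5.19 and Col3a1 at 5.47 UMIs per 10000, and among the 659 such cells of the normal library at 0.115 and 0.365.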

How the results depend on the processing

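No paired analysis was possible because each condition had 1 library and no test was made. The share of all genes called was computed for the main setting only, so counts under the alternatives have no background beside them. Over the alternatives the number of collagen genes called higher ranged between 12 and 18 (HSC-like), 9 and 17 (PF-like), 5 and 12 (mesothelial-like) and 0 and 18 (LSEC-like cells). With the lymphoid level subtracted it was 5 in mesothelial-like (and 5 lower) and 0 in LSEC-like cells, and the ratios of Col6a3 in mesothelial-like (0.172) and Col1a2 in LSEC-like cells (0.0502) were reversed, since their fibrosis levels were at or below the lymphoid level and were taken at the floor. As UMIs per cell, which multiplies the ratios of all genes of a class alike, it was 17 in PF-like cells. There 94.4% of called collagen genes were then higher in place of 66.7%, and in HSC-like cells 94.7% in place of 78.9%. In LSEC-like cells the number called higher was 18 without a filter on low levels and 3 at a mean level of at least 0.5. Without that filter 15 were higher and 8 lower in HSC-like cells, and 10 and 9 in PF-like cells. At the mean level of 0.5 these were 12 and 0 in HSC-like, and 9 and 2 in PF-like cells. Without the barcodes found in both tables, 16 genes were higher and 4 lower in HSC-like cells.

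The fibrillar share of fibrotic HSC-like cells was 73.5% at resolution 1.5, 70.8% at the 5% mitochondrial limit, 73.0% without high doublet scores, 72.7% with collagen genes kept, 65.8% with whole-library clusters, 73.2% without shared barcodes, 71.8% without the top 1% of cells and 73.5% with the lymphoid level subtracted. In normal HSC-like cells it was 35.4% without high doublet scores and 32.5% with whole-library clusters. The type IV share of normal LSEC-like cells was 69.9% at resolution 0.4, 67.1% at 1.5, 70.6% at the 5% limit, 65.2% with whole-library clusters and 72.7% with the lymphoid level subtracted. In fibrotic ones it was 70.5%, 68.8%, 67.7% and 85.9% at the 5% limit, without high doublet scores, with whole-library clusters and with the lymphoid level subtracted. The cause of these shifts was not tested. Of 678 alternative ratios of named genes 480 stayed within their main interval, 196 moved out of it and 2 were reversed. The 5% limit left no HSC-like class in the normal library, and whole-library clusters gave no mesothelial-like class in the normal library, where the PF-like cluster also held mesothelial markers, so these values are missing.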
